A study of Equus caballus with 10 samples.

Results

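The miR-30 family was represented by 4 of the 239 miRNAs in the count and RPM tables, namely eca-miR-30b, eca-miR-30c, eca-miR-30d and eca-miR-30e. They were gathered by name, and no other row is named miR-30. miR-30a has no row, so the family sum covers these 4 rows alone. The data are small RNA libraries of RNA recovered through a 5-ethynyl uridine (5-EU) label. Cells take up 5-EU in place of uridine during transcription, and RNA that carries it can be biotinylated and bound to streptavidin beads. Donor cells were grown with the label for 48 h, and the treatment was repeated for a further 48 h with a new batch of medium. Their extracellular vesicles (EVs) were isolated from the collected medium, and recipient cells took up these EVs for 24 h. The 5 EV-recipient chondrocyte cultures, kept at 5% oxygen, received EVs pooled from the synoviocytes of 9 horses. The 4 EV-recipient synoviocyte cultures, kept at 25% oxygen, received EVs pooled from the chondrocytes of 8 horses. All were primary equine joint cells, with donors at passage 1 and recipients at passage 2, and each recipient culture came from a separate horse. They are called the chondrocyte and the synoviocyte libraries below. A further synoviocyte library carries the same sample labels as those 4, while the group row of the deposited tables marks it as the negative (NEG), for which the study used EVs from unlabelled chondrocytes. It is called the unassigned library here, its values stand alone, and it entered no comparison between groups. Descriptions said to be over 10 libraries include it.

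The miR-30 miRNAs share a seed, the stretch near the 5′ end that pairs with target mRNAs, and differ mainly in the rest of the mature molecule. In human and mouse, miR-30b and miR-30d are encoded together in a cluster, and miR-30e lies in another beside a copy of miR-30c. Members are known to repress RUNX2, a transcription factor of bone formation, in mouse osteoblast precursors, SNAI1, a driver of epithelial to mesenchymal transition, in human cells, and, in the case of miR-30c, CCN2 (CTGF), a matricellular growth factor, in the rodent heart. In many solid tissues the family is among the common miRNAs.

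Between the groups compared, recipient cell type, EV source, EV dose and oxygen changed together and cannot be told apart. The paper gives a higher number of EVs per mL of medium for the synoviocytes. Because EVs were pooled, a library stands for a recipient horse and not for an EV preparation. miRNA counts per library ran from 4891 to 444408, with the smallest in chondrocyte replicate 1. A count of 3, the limit that a count of 0 allows, was worth 613 RPM in that library and 6.75 RPM in the deepest. RPM are reads scaled to the same miRNA total in every library. Intervals are 95% Wilson intervals, and they and the 3-count limit cover counting error only, since reads amplified without molecular identifiers are not independent molecules. As each library is a bulk culture, fewer cells holding a miRNA and less of it per cell cannot be told apart. In the chondrocyte libraries, which received synoviocyte EVs, the 2 arms of miR-140, known from cartilage, summed to between 204 and 3805 RPM. In the synoviocyte libraries, which received chondrocyte EVs, they summed to between 0 and 182 RPM. miR-140 was thus higher where the recipient cells, and not the EV donors, were chondrocytes. Whether these reads came from the EVs or from the recipient cells was not tested. The miR-143/145 pair, known from mesenchymal cells, summed to between 1713 and 16146 RPM in the chondrocyte libraries. In the synoviocyte libraries it summed to between 11213 and 76327 RPM. In the unassigned library, labelled synoviocyte, miR-140 stood at 787 RPM and the miR-143/145 pair at 6198 RPM, both inside the chondrocyte range and outside that of the synoviocytes. The erythroid list (miR-451, miR-144 and miR-486-5p) ranged from 45.6 to 1022 RPM in the chondrocyte libraries and from 27.5 to 16967 RPM in the synoviocyte libraries. The 2 leukocyte miRNAs with a row summed to 0 RPM at the median and 2657 RPM at most in the chondrocyte libraries, and to 42.9 and 217 RPM in the synoviocyte libraries. The 2 endothelial miRNAs had no counts in the chondrocyte libraries and summed to 23.4 RPM at the median and 93 RPM at most in the synoviocyte libraries. Whether any of these lists had a part in the miR-30 levels was not tested.

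The miR-30 family was present at a low level in both groups, and the group means differed by less than the SD of either. It summed to 777 ± 509 RPM (SD, n = 5) in the chondrocyte libraries and 696 ± 146 RPM (SD, n = 4) in the synoviocyte libraries. In the chondrocyte libraries the family stood at 0, 788, 857, 811 and 1430 RPM in replicates 1 to 5. In the synoviocyte libraries it stood at 733, 650, 527 and 875 RPM in replicates 1 to 4. All 4 synoviocyte values lay inside the chondrocyte range, whose low end is the 0 of the shallowest library. Among libraries with family counts, 3 of the 4 synoviocyte values lay below all 4 chondrocyte values. The highest value, in chondrocyte replicate 5, rested on 141 counts and had an interval of 1213 to 1686 RPM, above the intervals of chondrocyte replicates 2, 3 and 4. Over the 9 libraries the family held 1233 counts, which is 0.0795% of all miRNA counts.

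Replicate 1 lay at the low end of the chondrocyte libraries. It had 0 family counts among 4891 miRNA counts, which allows up to 613 RPM by the 3-count limit and 785 RPM by the Wilson interval. The other 4 chondrocyte libraries lay between 788 and 1430 RPM, and the intervals of replicates 2, 3 and 4 began at 709, 613 and 713 RPM, below the upper Wilson bound of replicate 1. Scaled down to 4891 counts, those 4 libraries would hold between 3.85 and 6.99 family counts, and the 4 synoviocyte libraries between 2.58 and 4.28. Without replicate 1, the family stood at 971 ± 307 RPM (SD, n = 4) in the chondrocyte libraries, and the ratio of synoviocyte to chondrocyte means went from 0.896 to 0.717.

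**Figure D1:**
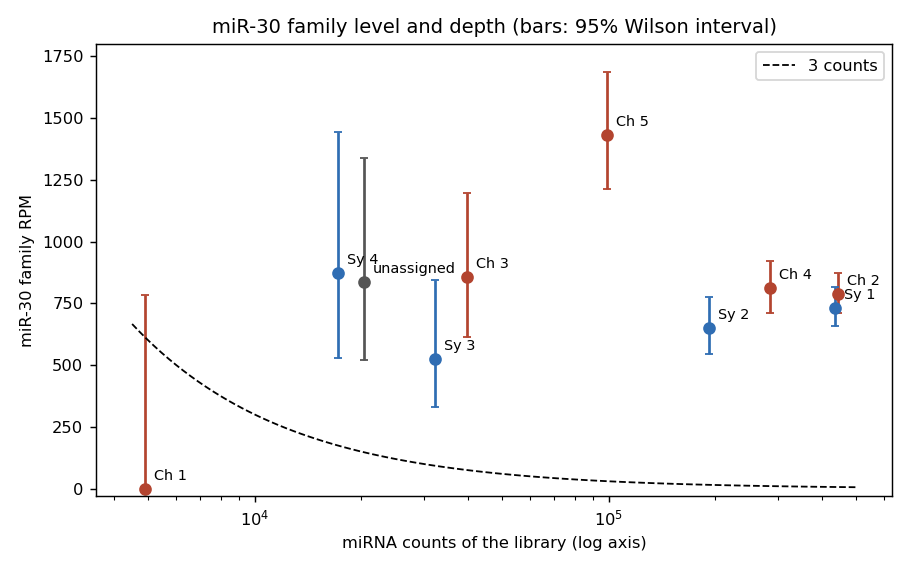
miR-30 family RPM (y axis) against the miRNA counts of each library (x axis, log scale), for EV-recipient chondrocytes (Ch, red), EV-recipient synoviocytes (Sy, blue) and the unassigned library (grey). Vertical bars are 95% Wilson intervals, the dashed line is the RPM of 3 counts, and 9 of the 10 libraries sit between 527 and 1430 RPM while Ch 1, the shallowest, has 0 counts.

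eca-miR-30d, whose human counterpart is known to repress the autophagy gene BECN1, carried most of the family. In the chondrocyte libraries it had 0, 336, 31, 165 and 111 counts in replicates 1 to 5, or 0, 756, 781, 579 and 1126 RPM. In the synoviocyte libraries it had 238, 92, 15 and 15 counts in replicates 1 to 4, or 545, 478, 465 and 875 RPM. The groups overlapped, and 3 of the 4 synoviocyte libraries lay below all 4 chondrocyte libraries that had any count. It was the only member counted in every library but chondrocyte replicate 1, and with a mean of 623 RPM it ranked 68th of 239 miRNAs over the 9 libraries.

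The group means of eca-miR-30d were 648 ± 413 RPM (SD, n = 5) and 591 ± 192 RPM (SD, n = 4), in chondrocytes and synoviocytes respectively. It was the only member among the 100 miRNAs that passed edgeR's filter on low counts. Its log2 fold change, synoviocytes over chondrocytes, was -0.19 (edgeR's quasi-likelihood test, standard error 0.82, adjusted p = 0.95). The 95% interval ran from -1.93 to 1.55 on the log2 scale. Of the 100 miRNAs tested, 5% passed at an adjusted p under 0.05 and 17% at an unadjusted p under 0.05, and 0 of the 1 member tested did so (unadjusted p = 0.821, edgeR). The RPM ranges of the groups did not overlap for 11% of the tested miRNAs, and those of eca-miR-30d overlapped. eca-miR-30b, eca-miR-30c and eca-miR-30e did not pass the filter. They had libraries with 0 counts in both groups, so their ranges had to overlap. The biological coefficient of variation that edgeR fitted for eca-miR-30d was 0.633, beside a median of 0.657 over the 100 miRNAs. The median log2 fold change of those miRNAs was 0.11.

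The direction for eca-miR-30d depended on the fit and on single libraries. In edgeR its log2 fold change was -0.43 without chondrocyte replicate 1 and 0.065 without chondrocyte replicate 5. With limma on log2(RPM + 1) its log2 difference was 1.46 (standard error 2.05), and without chondrocyte replicate 1 it was -0.46 (standard error 0.32). Neither of these passed the test in limma (adjusted p = 0.75 and 0.627).

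**Figure D2:**
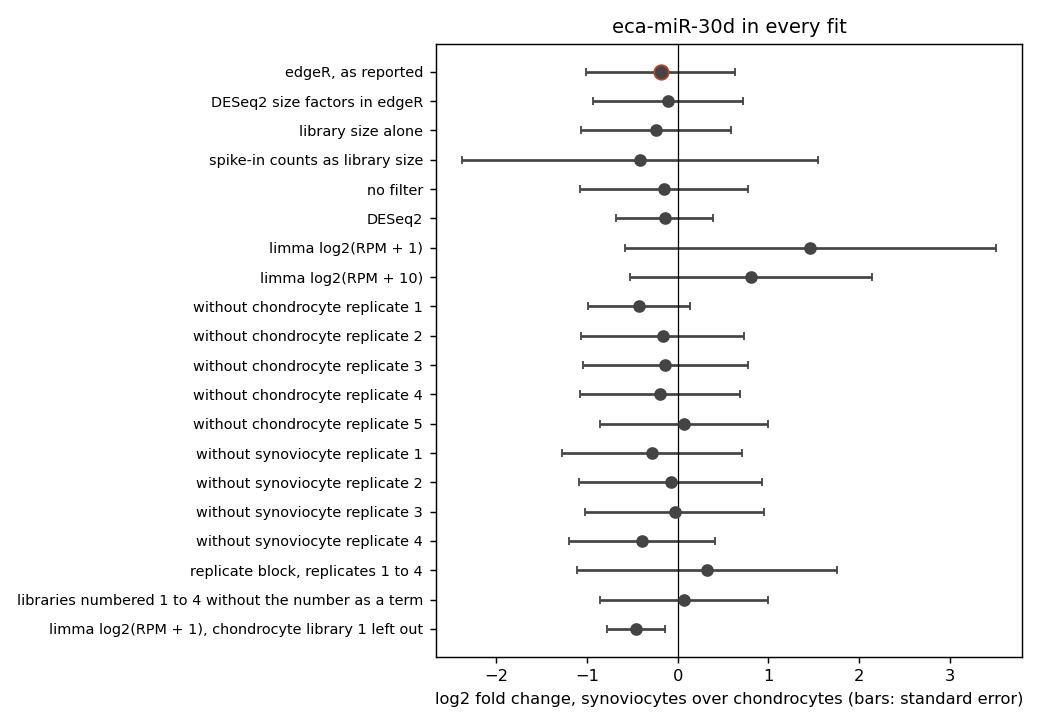
log2 fold change of eca-miR-30d (x axis), EV-recipient synoviocytes over EV-recipient chondrocytes, in each fit that tested it (y axis), with the standard error as bars. The value reported, -0.19, is ringed in red at the top, and the estimates lie on both sides of 0, between -0.46 and 1.46. The fit without chondrocyte replicate 5 appears again as libraries numbered 1 to 4 without the number as a term.

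eca-miR-30e, whose mouse counterpart is known to act on the Wnt co-receptor LRP6 in bone precursors, was the second member by summed counts, with 108 over the 9 libraries against 1003 for eca-miR-30d. In the chondrocyte libraries it had 0, 5, 1, 31 and 0 counts, or 0, 11.2, 25.2, 109 and 0 RPM. In the synoviocyte libraries it had 40, 29, 2 and 0 counts, or 91.6, 151, 62 and 0 RPM. The means were 29.1 ± 45.8 RPM (SD, n = 5) and 76.1 ± 62.8 RPM (SD, n = 4), and the ranges overlapped. In an exact permutation test of mean RPM over the 9 libraries, run on all 239 miRNAs, its two-sided p was 0.23 (0.893 after adjustment over all 239).

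eca-miR-30b, the usual cluster partner of miR-30d, was uneven between libraries. It had 0, 9, 0, 12 and 30 counts in the chondrocyte libraries, or 0, 20.2, 0, 42.1 and 304 RPM. The interval of replicate 5 (213 to 434 RPM) lay above those of the other chondrocyte libraries except replicate 1. The 0 counts of replicate 1 allow up to 613 RPM, so it cannot be said to lie below replicate 5. In the synoviocyte libraries eca-miR-30b had 27, 3, 0 and 0 counts, or 61.9, 15.6, 0 and 0 RPM. The group means were 73.3 ± 130 RPM (SD, n = 5) and 19.4 ± 29.3 RPM (SD, n = 4). The exact permutation p for eca-miR-30b was 0.738, with an adjusted p of 1.

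eca-miR-30c was the scarcest member, with 41 counts in 4 libraries. Its counts were 0, 0, 2, 23 and 0 in the chondrocyte libraries, or 0, 0, 50.4, 80.8 and 0 RPM. They were 15, 1, 0 and 0 in the synoviocyte libraries, or 34.4, 5.2, 0 and 0 RPM. Chondrocyte replicate 2, the deepest library, had none, which allows up to 6.75 RPM, while chondrocyte replicate 4 had 80.8 RPM (interval 53.8 to 121). The exact permutation p was 0.563, with an adjusted p of 0.99.

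Without any filter on low counts, edgeR gave a log2 fold change of -1.50 (standard error 1.84) for eca-miR-30b, -0.85 (2.03) for eca-miR-30c and 1.36 (1.79) for eca-miR-30e, with adjusted p of 0.666, 0.874 and 0.693 from its quasi-likelihood test. Each estimate was smaller than its standard error. No difference in the 3 scarcer members was detected.

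**Figure D3:**
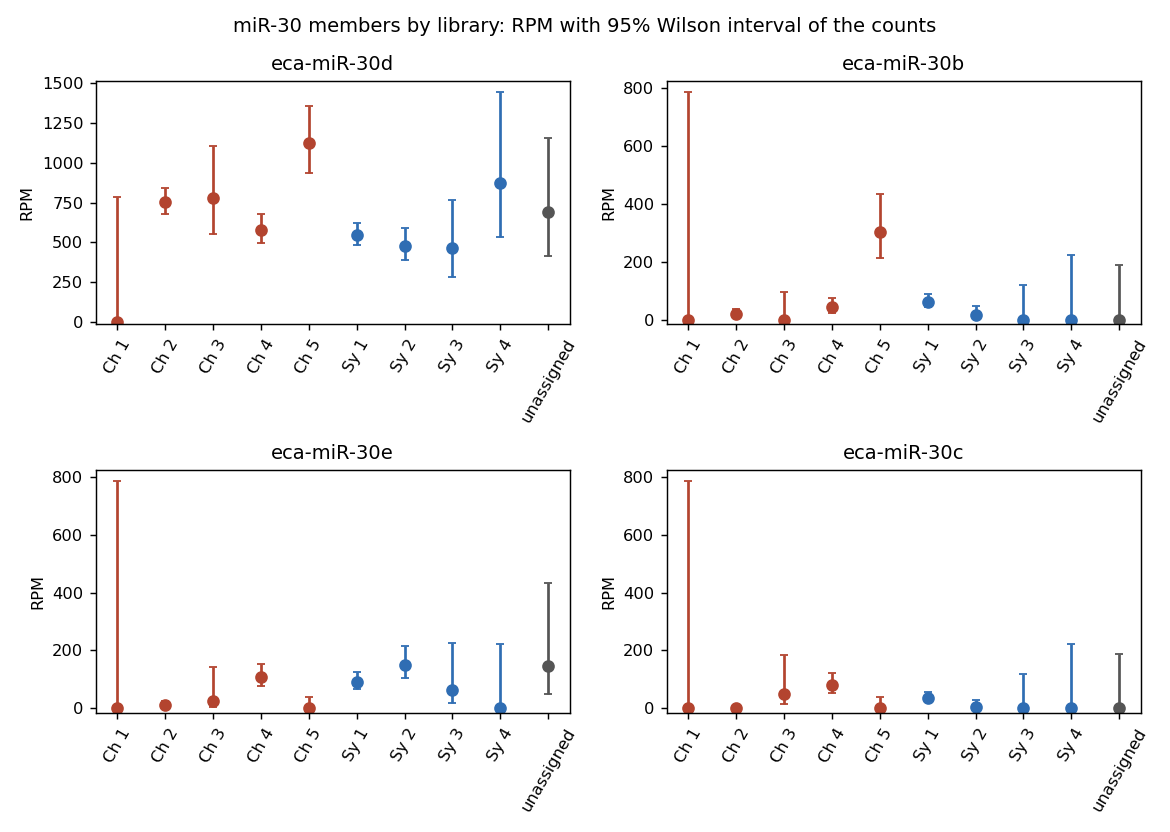
RPM of each miR-30 member (y axis, own scale per panel) in each library (x axis), for EV-recipient chondrocytes (Ch, red), EV-recipient synoviocytes (Sy, blue) and the unassigned library (grey), with 95% Wilson intervals as bars. eca-miR-30d is at 465 RPM or more wherever it has counts, whereas eca-miR-30b reaches 304 RPM in Ch 5 only and lies at or below 61.9 RPM elsewhere; the long bar at Ch 1 is the Wilson interval of 0 counts, up to 785 RPM.

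The share of the family given by eca-miR-30d varied between libraries, with nearly equal group means. It was 96, 91.2, 71.4 and 78.7% of family counts in chondrocyte replicates 2 to 5, and 74.4, 73.6, 88.2 and 100% in synoviocyte replicates 1 to 4. The mean shares were 84.3 ± 11.3% (SD, n = 4) and 84.1 ± 12.6% (SD, n = 4), and the difference of -0.28 percentage points was far inside the spread (exact permutation test over 70 splits, two-sided, p = 0.971, smallest possible p 0.0286). Within the chondrocyte libraries, the interval of replicate 2 (93.4 to 97.6%) lay above those of replicate 4 (65.3 to 76.9%) and replicate 5 (71.3 to 84.7%).

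The share of eca-miR-30e was higher in the synoviocyte libraries on average, at 11.9 ± 9.48% (SD, n = 4) against 4.45 ± 6.1% (SD, n = 4), and the ranges of 0 to 23.2% and 0 to 13.4% overlapped. The difference of 7.42 percentage points did not pass an exact permutation test chosen after the data were seen (two-sided, p = 0.371, 70 splits). The same exact test gave p = 0.543 for the share of eca-miR-30b and p = 0.429 for that of eca-miR-30c, none of the 3 adjusted. Over pooled counts eca-miR-30e gave 14.9% of the family in the synoviocyte libraries and 4.89% in the chondrocyte libraries. The pooled chondrocyte value leans on single libraries: replicate 4 held 31 of the 37 eca-miR-30e counts. Replicate 2 held only 5, among 350 family counts.

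For eca-miR-30d, pooled counts gave another picture than the mean shares. It held 85.1% (interval 82.3 to 87.4) of 756 family counts in the chondrocyte libraries and 75.5% (71.4 to 79.1) of 477 in the synoviocyte libraries. Chondrocyte replicate 2 alone supplied 46.3% of the chondrocyte counts. Without it the pooled chondrocyte share was 75.6%, close to that of the synoviocytes.

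The remaining counts were led by different members in different libraries. In chondrocyte replicate 5, all 30 counts outside eca-miR-30d were eca-miR-30b, 21.3% of the family (interval 15.3 to 28.7). In synoviocyte replicate 2, 29 of the 33 were eca-miR-30e, 23.2% of the family (interval 16.7 to 31.3). Chondrocyte replicate 4 and synoviocyte replicate 1 held all 4 members, with eca-miR-30e at 13.4 and 12.5% of the family. eca-miR-30e exceeded eca-miR-30b in 6 of the 10 libraries and was below it in 2.

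The ratio within each pair that shares a cluster in human and mouse was also variable. Pooled over a group, there were 12.6 eca-miR-30d counts per eca-miR-30b count in the chondrocyte libraries and 12 in the synoviocyte libraries. In single libraries with both, this ratio ran from 3.7 in chondrocyte replicate 5 to 37.3 in chondrocyte replicate 2, and was 8.81 and 30.7 in synoviocyte replicates 1 and 2. Pooled in the same way, there were 1.48 eca-miR-30e counts per eca-miR-30c count in the chondrocyte libraries and 4.44 in the synoviocyte libraries. Chondrocyte replicate 4 alone held 31 of the 37 eca-miR-30e and 23 of the 25 eca-miR-30c counts of its group. Counts of eca-miR-30e and eca-miR-30c were 40 and 15 in synoviocyte replicate 1, and 29 and 1 in replicate 2. The pooled ratios thus rest on few libraries, and their difference was not tested. eca-miR-30e exceeded eca-miR-30c in 6 of the 10 libraries and was below it in 1, chondrocyte replicate 3, at 1 and 2 counts. Mature miRNAs that differ at few bases can trade reads when a mismatch is allowed in mapping, as it was here. How far this moved counts between members, or brought in reads of miR-30a, was not tested.

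**Figure D4:**
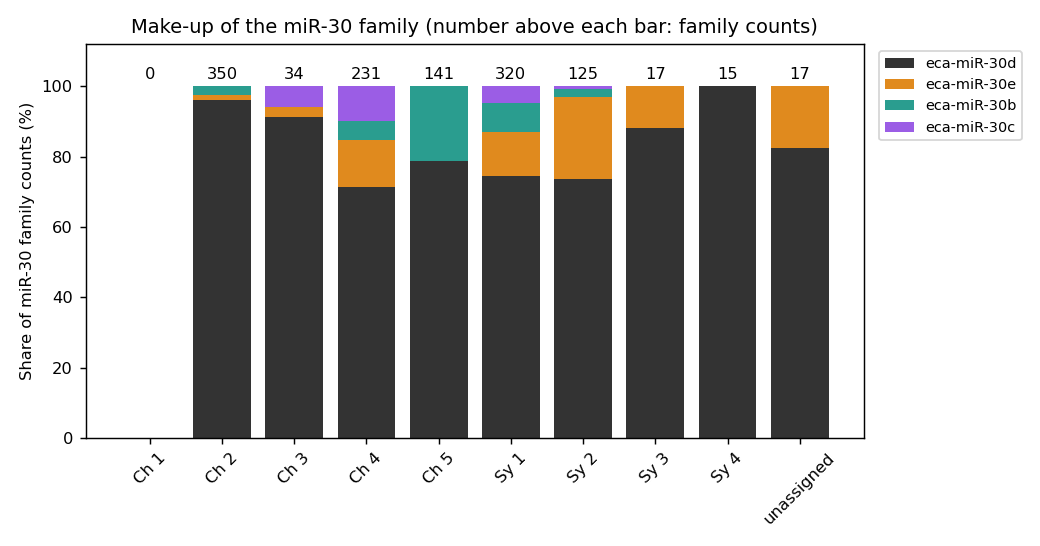
Share of miR-30 family counts (y axis, percent) given by each member in each library (x axis; Ch, EV-recipient chondrocytes; Sy, EV-recipient synoviocytes), with the family counts above each bar. eca-miR-30d fills 71.4 to 100% of every bar, eca-miR-30b fills the rest in Ch 5 and eca-miR-30e most of it in Sy 2, and Ch 1 has no bar because it has 0 counts.

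Against the other miRNAs the family as counted here, without a row for miR-30a, was a minor one. Grouped by name, the 239 miRNAs formed 182 families, and miR-30 ranked 51st by mean RPM over the 9 libraries, with 50 above and 131 below. It ranked 47th in the chondrocyte libraries and 53rd in the synoviocyte libraries. In single libraries with family counts its rank ran from 41 in chondrocyte replicate 5 to 59 in synoviocyte replicate 3. miR-21, a miRNA common in fibroblast-like cells, had a mean RPM 358 times that of the miR-30 family. The other 4 of the 5 leading families were miR-221, miR-222, miR-100 and miR-26, at 107, 101, 81.5 and 59.9 times its mean. Each of these was counted in all 9 libraries, and miR-30 in 8.

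The families nearest in rank were miR-676 and miR-532 above, at 804 ± 430 and 778 ± 377 RPM (SD, n = 9), and miR-502 and miR-505 below, at 679 ± 331 and 640 ± 506 RPM. The miR-30 family stood at 741 ± 374 RPM over the same 9 libraries. As the neighbours were picked by rank on these same means, their closeness to it follows from the choice. Even the summed family lay below the 2045 RPM that the abundance filter described in the methods amounts to in these libraries, in each of the 9.

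**Figure D5:**
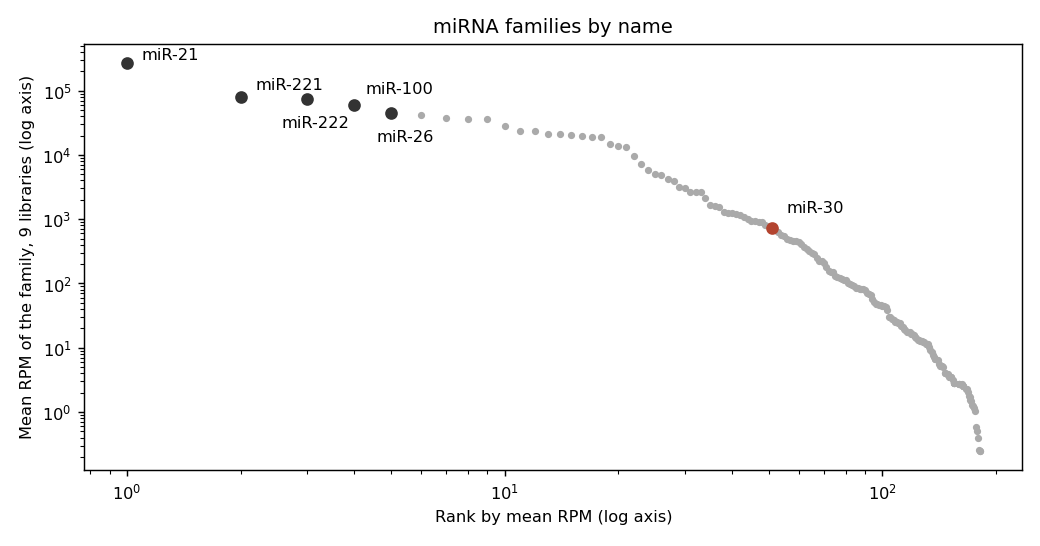
Mean RPM over the 9 grouped libraries (y axis, log scale) against rank (x axis, log scale) for the miRNA families grouped by name. miR-30 (red) ranks 51st, and the labelled black points are the 5 leading families, between 59.9 and 358 times its mean RPM.

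Relative to the 8 spike-in calibrators, the family varied more within groups than in RPM. It stood at 0.767 ± 0.746 counts per 1000 spike-in counts (SD, n = 5) in the chondrocyte libraries and 0.655 ± 0.82 (SD, n = 4) in the synoviocyte libraries. The range was 0 to 1.85 in the former and 0.0554 to 1.83 in the latter. The number of miRNA counts per spike-in count itself spanned 186 times over the 9 libraries, and the library lowest in each group on this scale, chondrocyte replicate 1 and synoviocyte replicate 4, was also its shallowest.

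The miRNA whose RPM followed that of the family most closely over the 10 libraries was eca-miR-130a, with a Spearman's rho of 0.85 among 85 miRNAs counted in at least 8 libraries. eca-miR-1271a and eca-miR-10b followed with rho of 0.70 and 0.67, and the median over the 85 was 0.16. Over the 9 grouped libraries, rho was 0.90, 0.73 and 0.77, and over 10 libraries less chondrocyte replicate 1 it was 0.80, 0.58 and 0.55. These are descriptions over libraries that share depth and the RPM denominator. eca-miR-130a lay below the family in both groups, at a mean of 420 RPM in the chondrocyte and 368 RPM in the synoviocyte libraries.

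The unassigned library held 17 family counts among 20330 miRNA counts, or 836 RPM (interval 522 to 1339). eca-miR-30d supplied 14 counts (689 RPM) and eca-miR-30e 3 counts (148 RPM), and eca-miR-30b and eca-miR-30c had none, which allows up to 148 RPM each. Its family level in RPM lay within the range of both groups, and its eca-miR-30d share of 82.4% (interval 59 to 93.8) did as well. RPM is scaled to the miRNA total and does not show how much RNA was recovered. Per 1000 spike-in counts the library held 0.0658 family counts, near the low end of the synoviocyte range of 0.0554 to 1.83 (mean 0.655). With a single library and no replicate there is no test of it.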

How the data were processed

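The measurement was small RNA sequencing of the 5-EU fraction of recipient-cell RNA, in 10 libraries. The authors trimmed reads with cutadapt 3.3 to at least 17 nt, mapped them with Bowtie 1.3.0 and miRDeep2 to the EquCab3.0 horse genome (2 mismatches) and then to horse miRBase entries (1 mismatch), and deposited raw counts of 239 miRNAs and 8 spike-ins. The authors also deposited RPM, which matched each count over the library's miRNA total within 0.0472%. All columns were mapped through the library names in the sample labels.

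Differences (synoviocyte over chondrocyte libraries) were fitted on the counts of 9 libraries with edgeR 4.0.16 in R 4.3.3 (TMM, quasi-likelihood test, Benjamini-Hochberg adjustment over all miRNAs kept by filterByExpr). This filter replaced that of the study, which keeps no miR-30 member. Standard errors are the fold change over the square root of F. Alternatives used DESeq2 1.42.0, limma 3.58.1, other scalings and filters, single libraries left out, and exact permutation tests (scipy 1.17.1). p-values measure the spread between libraries of different recipient horses given the same EV pools.

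Families were formed by name, dropping letters and arms. Mature sequences were not used here, and no coordinates are given. The members and lists were chosen with earlier results of these data known. Named miRNAs were the 4 members, the 3 with the highest rho to the family, and the 5 leading and 4 neighbouring families.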

Additional observations from a re-analysis of the deposited data

Results flagged for a closer look

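Among 14 sets of values per group (each member, the family sum, the share of eca-miR-30d and the level per spike-in), a library lay far from the others of its group in 3. Chance alone marks about 1 in 20 sets of independent, normally distributed values, a rate that does not hold for these sets, which overlap and hold many zeros. eca-miR-30b stood at 304 RPM in EV-recipient chondrocyte replicate 5, with the other 4 libraries between 0 and 42.1 RPM. eca-miR-30e stood at 109 RPM in EV-recipient chondrocyte replicate 4, with the others between 0 and 25.2 RPM. eca-miR-30c stood at 34.4 RPM in EV-recipient synoviocyte replicate 1, on 15 counts, with the others between 0 and 5.2 RPM. Several of the other libraries had 0 counts of these miRNAs. In chondrocyte replicate 1, 0 counts allow up to 613 RPM, more than either value flagged in chondrocytes. In synoviocyte replicates 3 and 4 they allow up to 93 and 175 RPM, more than the 34.4 RPM flagged. These shallow libraries cannot be said to lie below the flagged ones.

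The unassigned library labelled synoviocyte, which entered no comparison between groups, held the family at 836 RPM on 17 counts, above the 148 RPM that 3 counts are worth there.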

How the results depend on the processing

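eca-miR-30d passed no test in any of the 21 settings that held it, with adjusted p between 0.627 and 1 over edgeR, DESeq2, limma and the exact permutation test. Its log2 fold change, -0.19, turned positive in limma with 1 (1.46) or 10 RPM (0.81) added before the log. It was also positive without EV-recipient chondrocyte replicate 5 (0.065), and in the same libraries with the replicate number as a block (0.32). Leaving out that replicate keeps the libraries numbered 1 to 4, so these names stand for the same fit. Both names are counted among the 21. Leaving out single libraries gave -0.43 to 0.065. eca-miR-30e passed the filter only without EV-recipient synoviocyte replicate 3 or 4, at 1.42 and 1.57 (standard errors 1.14 and 1.07). The difference in the eca-miR-30d share ran from -5.60 to 3.61 percentage points without single libraries, and turned positive in 4 of 8 cases (3.61, 2.00, 2.95 and 3.20). Mean family RPM ran from 614 to 971 in EV-recipient chondrocytes and from 637 to 753 in EV-recipient synoviocytes, and their ratio from 0.717 to 1.13.

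Over all tested miRNAs, 5 passed at adjusted p under 0.05 and 17 unadjusted. Single libraries left out gave 1 to 7 and 10 to 21. Other settings gave 14 and 44 with no filter, 0 and 1 with spike-in scaling, 1 and 8 with limma at log2(RPM + 1), and 2 and 8 with the replicate block. The number at adjusted p was also 12 with DESeq2, 2 with limma at log2(RPM + 10) and 0 with the exact permutation test (19 unadjusted), and the unadjusted number 9 with the study's filter. The cause was not tested. Replicate numbers were not taken as pairs in the reported fit. Deviations of libraries with the same number correlated at -0.09, 0.31, -0.14 and 0.01. The best-matching chondrocyte library had the same number for synoviocyte replicate 2 only. So few correlations cannot settle whether the numbers pair the libraries. Families by seed were not run, as no sequences were used. Precision is limited by 4891 miRNA counts in the shallowest library and by 41 to 108 counts for the scarcer members.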
